A study of Mus musculus with 36 samples.

Results

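The 10 genes described here encode members of the JAK-STAT pathway and of its SOCS-family inhibitors in mouse natural killer (NK) cells. They are the kinase genes Jak1, Jak2 and Jak3, the transcription factor genes Stat3, Stat4, Stat5a and Stat5b, and the inhibitor genes Socs1, Socs3 and Cish. Each was taken by its exact symbol from all 4 deposited tables, and all 10 were found among the 32938 gene identifiers that the 4 tables share. The rule itself uses symbols and no measured value.

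Cytokine receptors have no kinase activity of their own and carry JAK kinases on their inner tails. A bound cytokine brings the JAKs together, they phosphorylate the receptor, and STAT proteins dock there, are phosphorylated, pair up and move to the nucleus to switch on target genes. SOCS proteins and CIS, the product of Cish, are themselves STAT targets and close a negative feedback loop on the receptor and its JAKs. In NK cells, IL-15 signals through JAK1, JAK3 and STAT5 for survival, IL-12 signals through JAK2 and STAT4 for interferon gamma production, and CIS is a known brake on the IL-15 response.

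RNA was sequenced from 36 samples in 12 groups of 3, with 1 library per sample and total RNA as the input to a kit for messenger RNA. Spleens gave the first 18 libraries, from CD27-negative, CD11b-positive (mature) cells split by staining for 3 inhibitory receptors that bind MHC class I. Cells named TP stained for all 3 (Ly49C, Ly49I and NKG2A), those named SP for Ly49I without the others, and those named TN for none. Both genotypes were sorted this way: wild-type C57BL/6 mice (WT, B2m+/+) and B2m-/- mice (KO), which lack the light chain of MHC class I in every cell, the NK cells included. In a second experiment, WT splenocytes received ionomycin, an ionophore that lets calcium into cells, or its vehicle, and NK cells were purified after 22 h. The next used NK cells of WT splenocytes after 48 h in medium alone or on plates coated with antibodies to activating receptors, either the pair NKp46 and NKG2D or the pair NKp46 and DNAM-1. The last group was CD27-negative, CD11b-positive NK cells from MC38 B2m-/- tumours (MC38 is a colon carcinoma line of the mouse) grown for 10 days under the skin of WT B6 mice. Doses and ages are not given in the sources used here.

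Values are TPM, which divide the reads of a gene by its length and scale by a library total, so levels can be compared between genes within a library. TPM hold no read counts, so depth is unknown, and precision rests on the spread over 3 libraries. The labels call the libraries biological replicates without saying that each came from another mouse, so p-values measure the spread between these samples. B2m checked the genotypes, at 2915.39 to 3419.55 TPM in the 9 WT libraries and at 73.93 to 128.47 TPM in the 9 KO libraries. All 7 markers of NK cells were present in every group, with summed levels of 7720 to 8850 TPM in the sorted cells, 4750 to 5510 in the antibody experiment, 2920 to 6190 in the ionomycin experiment and 2850 to 3320 in tumours. Libraries from KO TP cells stood apart by other markers, with 61.0 to 217 TPM summed over 5 neutrophil genes (at most 5.85 in other sorted libraries) and 227 to 467 TPM over 7 B and plasma cell genes (at most 52.8). In the ionomycin experiment, replicate 3 of each group carried neutrophil genes, summing to 119 TPM after ionomycin and 349 TPM after vehicle, against at most 2.19 TPM in the other 4 libraries. In a mixed RNA sample, fewer cells of a type and less RNA per cell cannot be told apart. Each table carries a single batch date, and groups were compared only within a table.

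Before the values, the start regions of the 3 inhibitor genes are shown, because these are the members under feedback from STATs and the ones that scattered most within groups of the sorted cells. Windows of 300 bases around the transcription start, 250 before and 50 after, were taken from RefSeq on GRCm38.p6 and were found for all 10 genes. The letters TTCNNNGAA, the palindrome that STAT dimers are known to bind and which reads alike on both strands, occurred in windows of 2 members, Cish and Socs3. Of 32851 promoter windows of the same length, 8.3% hold it. The core of the interferon-stimulated response element, GAAA, any 2 bases and GAAA, searched on both strands, occurred in Socs1 and in 1 of 2 windows of Stat4, and in 3.44% of all windows. The Cish match is a pair at the first base of the gene and 11 bases further on, the Socs3 match begins 154 bases before the start, and the 2 Socs1 matches overlap and begin 83 and 77 bases before it. A match is a description of letters, not of binding. Capitals mark the matched letters, and each stretch is written 5′ to 3′ on the strand of the gene.
Cish, chr9:107296659-107296678, plus strand, first 20 bases of the gene: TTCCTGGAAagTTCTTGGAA
Socs3, chr11:117969466-117969566, minus strand: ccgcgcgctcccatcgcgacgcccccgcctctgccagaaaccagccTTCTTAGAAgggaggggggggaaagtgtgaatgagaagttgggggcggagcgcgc
Socs1, chr16:10785537-10785636, minus strand, last 100 bases before the start: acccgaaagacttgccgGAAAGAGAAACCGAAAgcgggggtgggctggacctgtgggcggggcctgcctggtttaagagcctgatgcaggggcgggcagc

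The genes for Stat5b, Stat5a and Stat3 are neighbours on chromosome 11, where their start windows lie between bases 100822521 and 100939790. Stat5a and Stat5b encode near-identical proteins and share long stretches of sequence, so the split of reads between them is uncertain.

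In resting WT TP cells the kinase and STAT genes were abundant and the inhibitor genes low. Jak1 (ENSMUSG00000028530), the kinase shared by most cytokine receptors, was highest at 1060 ± 29.1 TPM (SD, n = 3). It was followed by Stat4 (ENSMUSG00000062939), the IL-12 signal transducer, at 361 ± 22.4 TPM and Stat3 (ENSMUSG00000004040), used by IL-21 and IL-10 among others, at 215 ± 15.8 TPM. Jak3 (ENSMUSG00000031805), the partner of the common gamma chain, stood at 97.3 ± 4.46 TPM, above the other members that follow. The next 3 overlapped as neighbours: Stat5b (ENSMUSG00000020919) at 60.6 ± 2.49 TPM, Jak2 (ENSMUSG00000024789) at 56.2 ± 6.94 and Stat5a (ENSMUSG00000004043) at 46.1 ± 10.7. The inhibitor genes came last and did not overlap each other, with Socs3 (ENSMUSG00000053113) at 15.0 ± 2.36 TPM, Cish (ENSMUSG00000032578) at 9.19 ± 2.07 and Socs1 (ENSMUSG00000038037) at 5.93 ± 0.816.

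Members also differed in how far libraries of 1 group scattered. Over the 18 sorted libraries, the within-group SD on the log2(TPM + 1) scale was 0.09 for Jak1 and Stat4, 0.14 for Jak2 and Jak3, 0.15 for Stat5b, 0.17 for Stat3 and 0.22 for Stat5a. For the inhibitors it was 0.26 for Socs3, 0.38 for Socs1 and 0.74 for Cish, beside a median of 0.31 over all tested genes. Cish ran from 3.11 to 29.39 TPM and Jak1 from 935.55 to 1245.02 TPM over the same libraries.

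**Figure D1:**
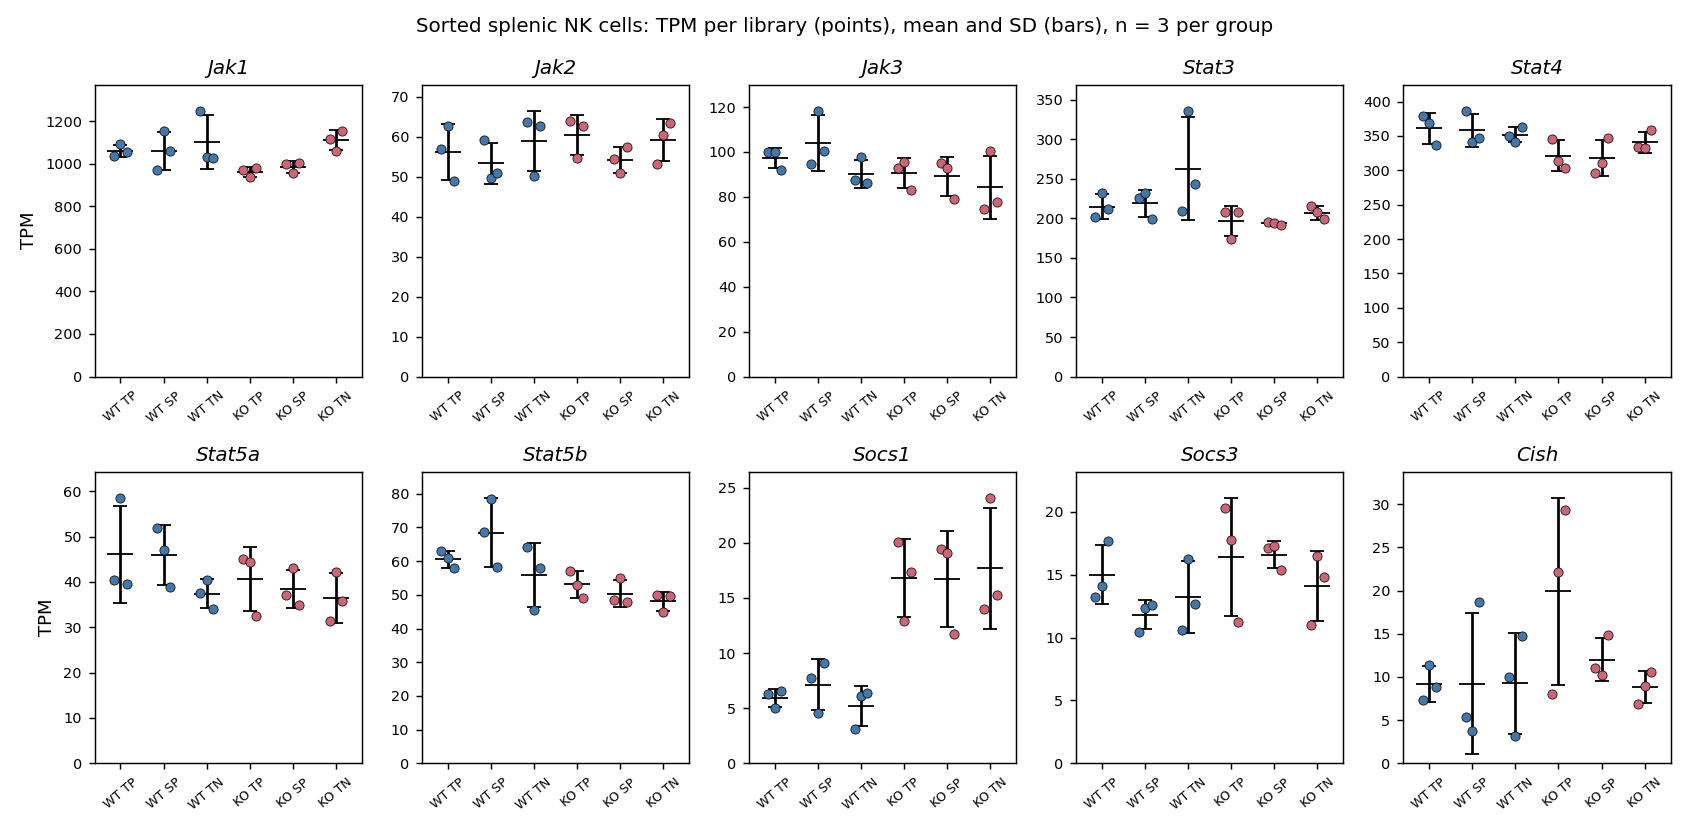
TPM of the 10 genes (vertical axes, each from 0) in the 6 groups of sorted splenic NK cells (horizontal axes), with points for libraries and bars for mean and SD (n = 3). In the Socs1 panel all 9 KO libraries, at 11.71 to 24.04 TPM, sit above all 9 WT libraries, at 3.12 to 9.07 TPM, while groups of the JAK genes lie close together.

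The comparison of subsets asks whether pathway genes differ with the inhibitory receptors that an NK cell carries. No member passed the test between subsets. Limma tests on log2(TPM + 1), adjusted by Benjamini-Hochberg over 12018 genes and called at an adjusted p under 0.05, gave 0 of 10 members in WT TN against TP, where 1.31% of all genes were called in either direction. In WT SP against TP the count was 0 of 10 beside 0.191%, and in WT TN against SP it was 0 of 10 beside 0.383%. At an unadjusted p under 0.05, 0 members passed in these 3 WT comparisons, beside 12.5%, 7.71% and 12.1% of all genes. The lowest adjusted p of a member by limma was 0.437, 0.782 and 0.414, in that order. The median log2 difference over the members was -0.12, 0.00 and 0.01, in the same order, beside -0.01, 0.00 and 0.00 over all genes.

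In the KO subsets the counts by limma were again 0 of 10 members in TN against TP (0.524% of all genes called), SP against TP (0.2%) and TN against SP (0.0416%). At an unadjusted p under 0.05 the counts were 1, 0 and 1, beside 6.43%, 2.93% and 2.77% of all genes, and both of those were Jak1. Jak1 stood at 968.78, 935.55 and 979.44 TPM in KO TP libraries, at 998.16, 953.87 and 1001.42 in KO SP and at 1117.27, 1059.49 and 1152.18 in KO TN. All 3 KO TN libraries lay above the other 6. The log2 difference was 0.21 (SE 0.08, limma unadjusted p = 0.0148, adjusted p = 0.531) against TP and 0.17 (SE 0.08, unadjusted p = 0.0372, adjusted p = 1) against SP. In WT cells Jak1 in TN against TP differed by 0.05 (95% interval -0.11 to 0.21), and the test of whether this difference varied with genotype gave 0.16 (SE 0.11, adjusted p = 0.862). Over all 10 members this test called 0, with 0 at an unadjusted p under 0.05, beside 0.025% and 6.27% of all genes.

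In each pair of subsets 0 to 2 of 10 members did not overlap, beside 10.6% to 14.6% of all genes. Socs3 was lower in all WT SP libraries (10.45, 12.35 and 12.55 TPM) than in all WT TP libraries (13.26, 14.09 and 17.7 TPM), the 1 of 10 members without overlap in that comparison, where 10.6% of all genes did not overlap. Its log2 difference was -0.32 with a 95% interval of -0.82 to 0.18. In WT TN cells 1 library of Stat3, at 335.4 TPM, lay well above the other 2, at 209.17 and 243.4 TPM. The counts without overlap were 0 in WT TN against TP (14.6% of all genes), 0 in WT TN against SP (11.4%), 1 in KO TN against TP (13.2%), 0 in KO SP against TP (10.9%) and 2 in KO TN against SP (10.9%), the last being Jak1 and Stat3.

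The genotype comparison asks how NK cells differ in mice without B2m, and so with little MHC class I at the cell surface. Socs1, a direct inhibitor of JAK1 and JAK2 that is induced by interferons and by common gamma chain cytokines, was higher in B2m-/- cells. In TP cells it stood at 20.03, 12.94 and 17.39 TPM in KO and at 6.29, 5.00 and 6.51 TPM in WT. In SP cells the KO libraries held 19.41, 19.05 and 11.71 TPM and the WT libraries 7.72, 4.58 and 9.07 TPM. In TN cells they held 13.95, 24.04 and 15.23 TPM in KO and 3.12, 6.12 and 6.34 TPM in WT. Every KO library lay above every WT library, across as well as within the subsets. The share of all genes that separate in this way is not given here, and the libraries of a genotype may come from fewer mice.

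Socs1 rose by 1.35 on the log2(TPM + 1) scale in TP cells (SE 0.32, limma adjusted p = 0.0408), from 5.93 ± 0.816 to 16.8 ± 3.58 TPM. It rose by 1.61 in TN cells (SE 0.32, adjusted p = 0.0224), from 5.19 ± 1.80 to 17.7 ± 5.49 TPM. In SP cells the difference was 1.14 (SE 0.32, 95% interval 0.47 to 1.80) and did not pass after adjustment (adjusted p = 0.0997), with means of 16.7 ± 4.35 and 7.12 ± 2.30 TPM. The size of the difference was not shown to vary between subsets: TN minus TP gave 0.26 (SE 0.45, adjusted p = 0.967), SP minus TP -0.21 (SE 0.45, adjusted p = 1) and SP minus TN -0.47 (SE 0.45, adjusted p = 0.951).

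The column names join the replicate number to the genotype, which reads as 1 mouse per number. With the 3 subsets of a number averaged, a fit added after seeing the data, Socs1 was higher in KO by 1.36 (SE 0.18, limma adjusted p = 0.00777), where 1.86% of all genes were called. It was the only member called in that fit, though Jak1, Stat3, Stat4 and Stat5b were lower in KO without overlap there. The share of all genes without overlap in that fit is not given here. Leaving out single mice moved the adjusted p of Socs1 between 0.02 and 0.0904, past 0.05 without KO mouse 1, KO mouse 2 or WT mouse 1. The calls within 1 subset stood nearer the threshold. In TP cells leaving out any 1 of the 6 libraries ended the call (adjusted p 0.0521 to 0.18, log2 change 1.21 to 1.51), and in TN cells leaving out WT replicate 1, KO replicate 2 or KO replicate 3 did (adjusted p 0.108, 0.131 and 0.0619). The TN call was also lost with both TP groups out of the fit (adjusted p = 0.102), where SP cells had an adjusted p of 0.201.

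The KO TP libraries, with the neutrophil and B cell transcripts given above, also summed to 22.3 to 55.9 TPM over 5 monocyte and macrophage genes, against 11.4 to 14.6 in WT TP. In KO SP and KO TN cells the neutrophil genes summed to at most 5.85 TPM and the B and plasma cell genes to at most 18.6 TPM, beside Socs1 levels of 11.71 to 24.04 TPM. The part of these other transcripts in the TP difference was not tested.

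**Figure D2:**
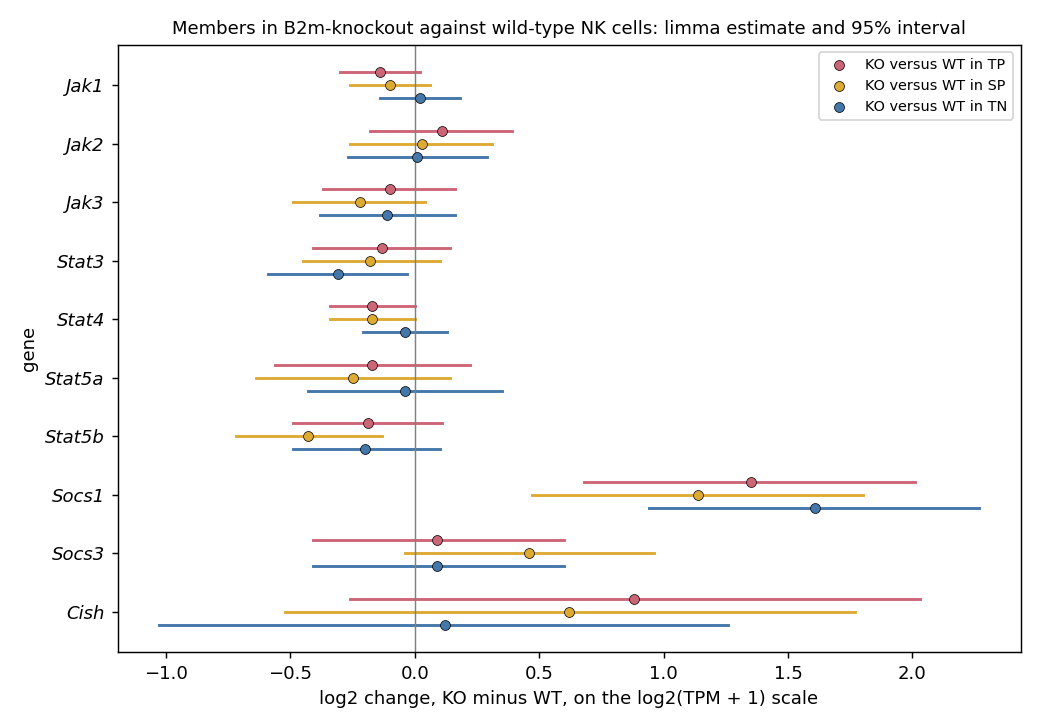
Log2 change of each gene in B2m-/- against WT NK cells (horizontal axis, log2(TPM + 1) scale) for TP, SP and TN cells, with limma estimates as points and 95% intervals as lines. The Socs1 estimates of 1.35, 1.14 and 1.61 lie to the right of the other members, and the Cish intervals are the widest.

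Among 10 members, 1 was called in TP cells (1.59% of all genes), 0 in SP cells (1.35%) and 1 in TN cells (0.716%), Socs1 both times. At an unadjusted p under 0.05 limma gave 1, 2 and 2 members, beside 11.8%, 11.7% and 10.5% of all genes. The median log2 difference over the members was -0.12, -0.14 and -0.02, beside 0.04, 0.03 and 0.02 over all genes. Without overlap between genotypes were 3 members in TP (18.3% of all genes), 4 in SP (18.9%) and 1 in TN cells (13.7%).

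The JAK genes differed little with genotype. Jak1 in TP cells did not overlap, at 935.55 to 979.44 TPM in KO and 1035.12 to 1092.58 in WT, with a log2 difference of -0.14 (95% interval -0.30 to 0.02). The estimates for Jak2, which serves the IL-12 and interferon gamma receptors, were 0.11, 0.03 and 0.01 in TP, SP and TN cells, and those for Jak3 were -0.10, -0.22 and -0.11. None of the 3 kinases passed the test in a subset, and all their 95% intervals lay between -0.49 and 0.39.

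Of the STAT genes, Stat5b, the more abundant of the STAT5 pair, came closest to a difference. In SP cells it stood at 48.38, 54.89 and 47.83 TPM in KO and at 68.75, 78.5 and 58.19 TPM in WT. The groups did not overlap, and the log2 difference was -0.43 (SE 0.14, limma unadjusted p = 0.00734, adjusted p = 0.183). In TP cells it was -0.19 (adjusted p = 0.643, no overlap) and in TN cells -0.20 (adjusted p = 0.67, with overlap), and over the averaged mice -0.27 (SE 0.08, adjusted p = 0.151). The ratio of Stat5b to Stat5a had means of 1.31 to 1.51 in the 6 sorted groups. In the order TP, SP and TN, the estimates for Stat4 were -0.17, -0.17 and -0.04, and those for Stat3 were -0.13, -0.18 and -0.31. The last value (limma unadjusted p = 0.0298, adjusted p = 0.4) came with overlapping groups and includes the high WT TN library of 335.4 TPM. Over the averaged mice, where neither overlapped, Stat3 gave -0.21 (SE 0.09, limma unadjusted p = 0.0416, adjusted p = 0.277). Stat4 gave -0.13 (SE 0.05, limma unadjusted p = 0.0433, adjusted p = 0.282).

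Neither of the other inhibitors passed the test in a subset, and their difference from Socs1 was not tested. Socs3, which blocks receptors of the gp130 type, was higher in all KO SP libraries (17.09, 17.27 and 15.34 TPM) than in all WT SP libraries (10.45, 12.35 and 12.55 TPM). The log2 difference was 0.46 with a 95% interval of -0.04 to 0.96, and it was 0.09 in TP and in TN cells. Cish stood at 8.08, 22.18 and 29.39 TPM in KO TP cells and at 7.35, 11.43 and 8.80 TPM in WT TP cells. With KO TP replicate 1 inside the WT range, its estimate of 0.88 had a 95% interval of -0.26 to 2.03, and the intervals in SP and TN cells, -0.52 to 1.77 and -1.03 to 1.26, also held 0.

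Genes whose levels went with those of a member were ranked by Pearson correlation of log2(TPM + 1) over the 18 sorted libraries, which share group differences and library effects, so no p is given. Per1, a gene of the circadian clock that also answers to glucocorticoids, was most like Socs1, with r = 0.942 over all libraries and 0.925 after group means were removed. AI506816 (0.909) and Slc35g1 (0.908) came next, with 0.641 and 0.385 after removal of group means. Socs3 was most like Socs2, another SOCS-family inhibitor, at 0.856 and 0.857, ahead of Trpc4ap at 0.799 and Slc16a13 at 0.79. Cish was most like Thap2 (0.824), Tmed2 (0.798) and Fbxo34 (0.786). Stat4 was most like Ptprc, which encodes the CD45 phosphatase, at 0.771, Ppp3cc, a calcineurin subunit, at 0.76, and Tet1 at 0.758. After removal of group means these 3 stood at 0.75, 0.477 and 0.667.

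Around the members, genes of the pathway were read in lists of receptors, inhibitors and targets, some of which share genes such as Il2ra and Il12rb2. Of 9 other JAK, STAT and SOCS genes, all tested, 0 were called with genotype in any subset by limma, while 0, 1 and 2 had an unadjusted p under 0.05 in TP, SP and TN cells. Their median log2 differences were 0.15, 0.02 and 0.04. Of 5 tested STAT3 targets 0 were called, with 1, 1 and 0 at an unadjusted p under 0.05 and medians of -0.03, -0.18 and -0.12.

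Calls with genotype fell among receptors, a phosphatase and survival genes. Of 15 tested receptor chains, 1 rose in TP, 1 rose and 2 fell in SP, and 1 rose in TN cells, with medians of -0.07, -0.11 and 0.06. Ifngr1, the ligand-binding chain of the interferon gamma receptor, rose in each subset, by 0.66, 0.74 and 0.63 (limma adjusted p = 0.000121, 4.2e-05 and 0.00034), for example from 542 ± 21.8 to 859 ± 45.0 TPM in TP cells. In SP cells Il21r, the IL-21 receptor, fell by 0.98 (adjusted p = 0.0405) and Il27ra, the IL-27 receptor, fell by 0.53 (adjusted p = 0.0439). Among 10 other inhibitors, Ptpn6, which encodes the phosphatase SHP-1 that inhibitory receptors recruit, rose in TP cells from 151 ± 16.0 to 353 ± 24.5 TPM (log2 change 1.23, adjusted p = 0.000239) and in SP cells from 145 ± 40.7 to 314 ± 22.0 TPM (1.15, adjusted p = 0.000616). In TN cells it stood at 314 ± 46.3 TPM in KO and 307 ± 46.3 TPM in WT. Within WT mice it was higher in TN than in TP cells by 1.02 (adjusted p = 0.00209) and than in SP cells by 1.11 (adjusted p = 0.00356). The test of TN against TP between genotypes gave -1.20 for Ptpn6 (adjusted p = 0.0808).

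Of 8 tested STAT5 targets, 1 rose and 1 fell in TP, 1 rose and 1 fell in SP, and 1 fell in TN cells, with medians of 0.07, -0.06 and -0.01. Bcl2, the survival gene that IL-15 maintains in NK cells, was raised in TP cells by 0.90 and in SP cells by 0.67 (adjusted p = 0.000362 and 0.007). Pim2, a kinase gene induced by cytokines, fell by 1.30, 1.23 and 0.84 in TP, SP and TN cells, in TP cells from 115 ± 14.1 to 46.5 ± 9.11 TPM (adjusted p = 5.8e-05). Bcl2 and Pim2 are both known STAT5 targets and moved in opposite directions. Of 7 STAT4 targets, Il18r1 rose by 0.38 and 0.40 and Il18rap fell by 0.30 and 0.33 in TP and SP cells, 0 were called in TN cells, where 3 had an unadjusted p under 0.05, and the medians were 0.00, -0.02 and -0.17. These encode the 2 chains of the IL-18 receptor.

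Between subsets the calls in these lists were Ptpn6 in WT cells, given above, and those that follow. Limma called 1.31% of all genes in WT TN against TP, 0.383% in WT TN against SP and 0.2% in KO SP against TP. In WT TN against TP cells Bcl2 rose by 0.75 (adjusted p = 0.00284) and Myc, a growth regulator, rose by 0.76 (adjusted p = 0.0389). In KO cells Il7r, the IL-7 receptor chain and also a marker of type 1 innate lymphoid cells, was lower in SP than in TP cells (0.357 ± 0.523 against 8.12 ± 4.64 TPM, log2 difference -2.69, adjusted p = 0.0373). In WT cells the same difference was -2.41 (0.0567 ± 0.0981 against 4.65 ± 0.932 TPM, without overlap, adjusted p = 0.0813). The 4 markers of type 1 innate lymphoid cells, Il7r among them, summed in WT to 14.2 to 21.7 TPM in TP and 8.97 to 12.0 TPM in SP cells. In KO they summed to 18.9 to 26.1 TPM in TP and 7.24 to 13.5 TPM in SP cells. The KO TP libraries are also those with neutrophil and B cell transcripts. The part of any of these cells in the differences was not tested.

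Ionomycin raises calcium in the cell without a receptor, and the experiment compares NK cells after 22 h of it with vehicle. Stat3 was higher, at 2339.01, 2787.54 and 2631.01 TPM against 844.19, 1075.22 and 966.7 TPM with vehicle. The groups lay far apart. Stat3 rose by 1.43 on the log2 scale (SE 0.18, limma adjusted p = 0.00688 over 14372 genes), from 962 ± 116 to 2590 ± 228 TPM. With vehicle it was the most abundant member, with Jak1 overlapping it at 807 ± 384 TPM, and with ionomycin it stood above the other 9.

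Stat5b was at 151.58, 164.89 and 156.23 TPM with ionomycin and at 68.97, 70.96 and 96.68 TPM with vehicle. These did not overlap, and the log2 difference of 1.01 (SE 0.22) fell just short of the threshold (adjusted p = 0.0539). It passed after median-of-ratios rescaling (adjusted p = 0.0314), with quantile normalization (0.0223) and without vehicle replicate 3 (0.0329). It did not pass under the other 10 alternatives, where adjusted p ran up to 0.216. Its neighbour and paralog Stat5a stood at 62.64, 79.34 and 55.71 TPM against 79.37, 50.36 and 56.07 TPM, a log2 difference of 0.10 (95% interval -0.53 to 0.73). The ratio of Stat5b to Stat5a was 2.42, 2.08 and 2.80 with ionomycin and 0.869, 1.41 and 1.72 with vehicle, without overlap (exact permutation test, two-sided p = 0.1, the smallest that 3 against 3 can give).

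Jak2 and Jak3 lay on the lower side. Jak2 held 44.41, 53.86 and 52.86 TPM with ionomycin against 86.58, 106.1 and 94.68 TPM with vehicle, which did not overlap, with a log2 difference of -0.91 (SE 0.23, adjusted p = 0.0835). Jak3 held 170.87, 207.51 and 208.84 TPM against 236.67, 385.27 and 257.78 TPM, also without overlap, with a difference of -0.55 (SE 0.24, unadjusted p = 0.0464, adjusted p = 0.32). Neither passed after adjustment. Jak1 held 1060.45, 1389.26 and 1387.02 TPM against 418.51, 815.61 and 1187.18 TPM, where vehicle replicate 3 lay inside the ionomycin range.

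Among the inhibitors the vehicle libraries scattered more than the ionomycin libraries. Cish stood at 14.84, 5.13 and 6.15 TPM with ionomycin and at 66.29, 18.81 and 6.66 TPM with vehicle. Socs1 held 17.11, 14.91 and 15.82 TPM against 19.43, 28.95 and 6.42, and Socs3 held 122.07, 114.04 and 104.01 TPM against 188.03, 196.62 and 59.16. All 3 overlapped, and vehicle replicate 3, the library with the most neutrophil transcripts, was the lowest vehicle library for each of them. Stat4 overlapped as well, at 217.19 to 346.87 TPM against 155.57 to 403.04 TPM.

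**Figure D3:**
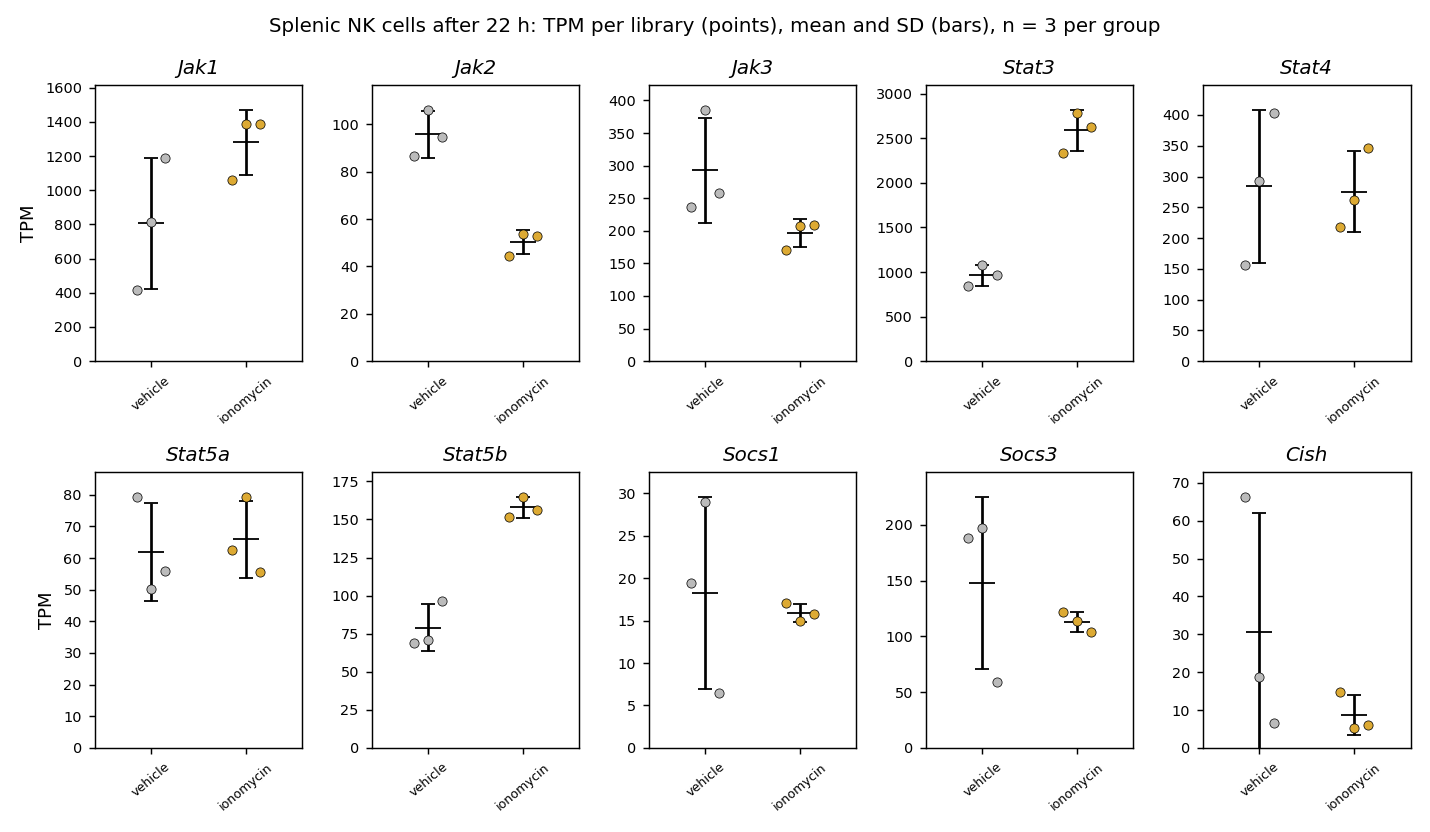
TPM of the 10 genes (vertical axes, each from 0) with vehicle or ionomycin for 22 h, with points for libraries and bars for mean and SD (n = 3). Stat3 at 2590 against 962 TPM and Stat5b at 158 against 78.9 TPM separate upward, Jak2 at 50.4 against 95.8 TPM separates downward, and the Cish bar with vehicle runs past 0 because its SD of 31.5 exceeds its mean of 30.6.

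By limma 1 of 10 members was called, Stat3, beside 2.91% of all genes, and 4 had an unadjusted p under 0.05, beside 15.1%. The groups did not overlap for 4 members, 2 higher and 2 lower, beside 20.1% of all genes. The members' median log2 difference was 0.03, beside 0.00 over all genes. Without replicate 3 of both groups, the libraries with neutrophil transcripts, the Stat3 change was 1.42 and no longer passed (adjusted p = 0.186), in a fit that called 0 genes in all. Leaving out ionomycin replicate 1, 2 or 3 or vehicle replicate 2 also ended the call (adjusted p 0.09, 0.125, 0.134 and 0.0758), with changes of 1.37 to 1.51. The NK cell markers summed to 2920 to 3680 TPM with ionomycin and 3740 to 6190 TPM with vehicle, and 5 T cell markers to 12.8 to 25.3 TPM and 2.24 to 7.87 TPM, with Cd4 and Cd8a at 0 in both groups. The 4 markers of type 1 innate lymphoid cells summed to 30.0 to 58.2 TPM and 69.8 to 105 TPM, without overlap. The part of these differences in the result was not tested.

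The other pathway lists held calls on the lower side alone. Of 16 tested receptor chains 2 fell, Il27ra by 1.92 (adjusted p = 0.0189) and Il4ra, the IL-4 receptor, by 1.76 (adjusted p = 0.0255), with a list median of -0.75. Of 9 STAT5 targets 1 fell, Pim2 by 1.72 (adjusted p = 0.0496), with a median of -0.44. Of 6 STAT3 targets 1 fell, Bcl3 by 2.50 (adjusted p = 0.0479), from 142 ± 83.3 to 20.7 ± 5.22 TPM, with a median of -1.24. Of 7 STAT4 targets 0 were called (2 at an unadjusted p under 0.05, median -0.62). Among the other JAK, STAT and SOCS genes 0 of 9 were called (2, median 0.13), and among the other inhibitors 0 of 10 (0, median 0.14).

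The antibody experiment asks what changes when activating receptors are engaged for 48 h. No member passed the test against medium. Limma called 0 of 10 members with antibodies to NKp46 and NKG2D (0.431% of 13689 genes called) and 0 of 10 with antibodies to NKp46 and DNAM-1 (0.782%). At an unadjusted p under 0.05 there were 4 and 2 members, beside 15.1% and 18% of all genes. The groups did not overlap for 3 members (17.3% of all genes) and 4 members (21.1%), and the members' medians were -0.05 and -0.11, beside -0.04 and -0.04 over all genes. Both comparisons share the medium libraries. These list 13555 to 14674 genes above 0, against 16107 to 18096 in the antibody libraries, and the part of this in the values below was not tested. Groups follow the column names of the table, with which the sample titles disagree for 6 of 9 samples. These names also carry a replicate number shared across the groups, which the main fit did not use as a block.

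All 3 JAK genes had an antibody group apart from medium. Jak3 stood at 60.6, 61.03 and 55.72 TPM in medium, at 73.06, 75.07 and 74.11 TPM with NKp46 and NKG2D antibodies and at 87.48, 74.02 and 75.56 TPM with NKp46 and DNAM-1 antibodies. Both antibody groups lay above medium without overlap, with log2 differences of 0.32 (SE 0.12, limma adjusted p = 0.256) and 0.41 (SE 0.12, adjusted p = 0.135). Jak2 lay below medium without overlap in both, at 73.51 to 87.87 TPM in medium, 60.34 to 66.89 TPM and 64.54 to 67.76 TPM. Its differences were -0.30 (SE 0.12, adjusted p = 0.281) and -0.26 (95% interval -0.53 to 0.01).

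Jak1 held 731.64, 821.99 and 849.42 TPM in medium, 605.29, 764.67 and 616.28 TPM with NKp46 and NKG2D antibodies, and 636.58, 676.85 and 615.41 TPM with NKp46 and DNAM-1 antibodies. Only the last group lay apart from medium, by -0.31 (SE 0.10, adjusted p = 0.172). Under the groups of the sample titles the differences of Jak3 turned to -0.06 and -0.10 and that of Jak1 with DNAM-1 to 0.06, and that of Jak2 with NKG2D shrank to -0.04 (adjusted p = 0.995).

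STAT genes overlapped medium in both antibody groups, as did Socs1. Medium libraries spread widely for Stat3 (340.69, 258.01 and 163.65 TPM), while the 6 antibody libraries held 285.18 to 327.55 TPM. Stat5a showed the same, at 51.29, 24.72 and 27.45 TPM in medium and 33.93 to 40.14 TPM in the others. Cish, the inhibitor induced by IL-2 and IL-15, stood at 49.11, 31.71 and 14.63 TPM in medium, at 16.45, 13.04 and 9.52 TPM with NKp46 and NKG2D antibodies and at 25.15, 13.13 and 11.98 TPM with NKp46 and DNAM-1 antibodies. Medium replicate 3 lay within both antibody ranges, although within each replicate number Cish was lower with either antibody pair than in medium, and the differences of -1.10 and -0.81 had 95% intervals of -2.07 to -0.14 and -1.77 to 0.16 (adjusted p = 0.271 and 0.359). Socs3 was lower without overlap in both, at 22.71 to 26.84 TPM in medium and 16.94 to 19.94 and 17.74 to 22.26 TPM with antibodies, by -0.41 (95% interval -0.83 to 0.00) and -0.35 (95% interval -0.77 to 0.07).

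**Figure D4:**
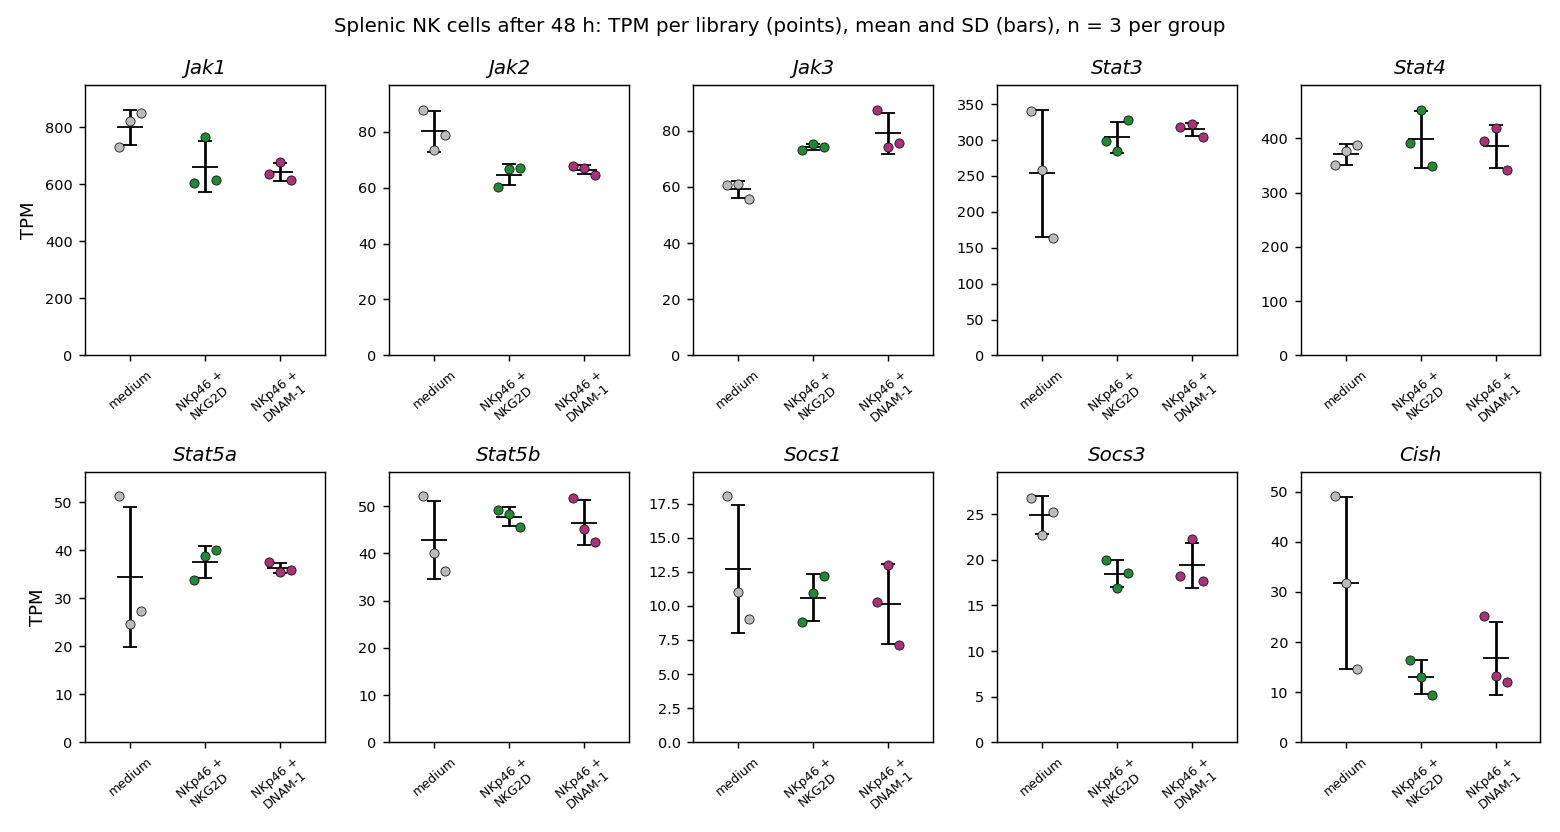
TPM of the 10 genes (vertical axes, each from 0) in medium or with plate-bound antibodies for 48 h, with points for libraries and bars for mean and SD (n = 3). Jak3 at 59.1 TPM in medium lies under 74.1 and 79.0 TPM with antibodies, Jak2 and Socs3 lie above, and Stat3, Stat5a and Cish scatter most in medium.

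The 2 antibody pairs were not told apart by any member. Between them limma called 0 of 10 members, with 0 at an unadjusted p under 0.05 and 0 without overlap, beside 0.0146%, 1.22% and 7.42% of all genes. The differences, NKp46 and DNAM-1 minus NKp46 and NKG2D, ran from -0.09 to 0.30.

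Some target and receptor genes were called in the same libraries, under the groups of the column names. Under the groups of the sample titles limma called 0 genes in all with NKp46 and NKG2D antibodies and 1 with NKp46 and DNAM-1 antibodies, so at most 1 of the calls below can stand there. With NKp46 and NKG2D antibodies Il7r fell by 2.20 among 16 tested receptor chains (30.2 ± 7.09 to 5.72 ± 0.886 TPM, adjusted p = 0.00974), and with NKp46 and DNAM-1 antibodies by 1.86 (adjusted p = 0.0231). The list medians were -0.16 and -0.08, and these were the only calls in it. The 5 T cell markers summed to 71.6, 27.6 and 49.0 TPM in medium and to 20.1 to 39.6 TPM with antibodies, with overlap. Among them, Cd3e was at 23.88, 4.54 and 31.39 TPM in medium and at 3.55 to 8.72 TPM with antibodies. Medium replicate 2 of Cd3e lay inside the antibody range. The NK cell markers summed to 5400 to 5510 TPM in medium and 4750 to 5190 TPM with antibodies. The 4 markers of type 1 innate lymphoid cells, Il7r among them, summed to 47.2 to 66.8 TPM in medium and 23.6 to 66.2 TPM with antibodies, and the part of such cells was not tested. Of 9 STAT5 targets 1 rose and 1 fell in each comparison: Pim1, a kinase gene, rose by 0.54 and 0.53 (adjusted p = 0.0242 and 0.0231) and the cytokine gene Osm fell by 1.24 and 1.31 (adjusted p = 0.0311 and 0.023), with medians of -0.19 and -0.14. Of 6 STAT3 targets Junb, an AP-1 subunit, fell by 1.35 and 1.14 (adjusted p = 0.000813 and 0.00295), with medians of 0.19 and 0.29. Of 7 STAT4 targets Ifng, the main NK cell cytokine, fell by 1.14 and 1.20 (adjusted p = 0.00531 and 0.00373), with medians of -0.02 and -0.07. The other JAK, STAT and SOCS genes (0 of 9, with 0 and 1 at an unadjusted p under 0.05) and the other inhibitors (0 of 10, with 3 and 2) also gave no call.

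The tumour table has no control group, so its levels are described without a test. Its columns carry the terms B2MKO and SP, which the titles of the tumour samples do not explain. For the sorted cells SP names those that stained for Ly49I without the others, and whether it does so here is not stated. These libraries were grouped by title. Stat3 was the most abundant member, at 996.75, 942.12 and 792.13 TPM, followed by Jak1 at 738.39, 681.66 and 704.35 TPM. Inhibitors ranked high: Socs3 held rank 3, at 353.6, 300.15 and 278.23 TPM, and Cish rank 5, at 187.63, 177.38 and 186.57 TPM. Stat4 lay between them at 244.9, 226.48 and 239.85 TPM. Jak2 (70.89 to 82.58 TPM) and Jak3 (57.46 to 68.43 TPM) came next, then Stat5b (29.72 to 41.41 TPM) and Stat5a (27.41 to 32.32 TPM), and Socs1 was last, at 16.41, 15.96 and 11.91 TPM. In this order Stat5b and Stat5a were the only neighbours whose libraries overlapped.

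Within each table, where levels share 1 scale, the place of the inhibitors differed. Socs3 and Cish held ranks 3 and 5 of 10 in the tumour cells, while all 3 inhibitors filled the last places in WT TP cells and in medium. In the ionomycin experiment Socs3 held rank 5 with vehicle and rank 6 with ionomycin. These tables were normalized separately and come from other sorts and cultures, so the ranks are set side by side and were not tested. The tumour libraries listed all 5 neutrophil genes at 0, held 17.7 to 70.1 TPM over 5 monocyte and macrophage genes and 1.44 to 19.3 TPM over 5 carcinoma and stroma genes, and red cell genes summed to 0, 182 and 306 TPM. The part of these other cells in the levels was not tested.

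**Figure D5:**
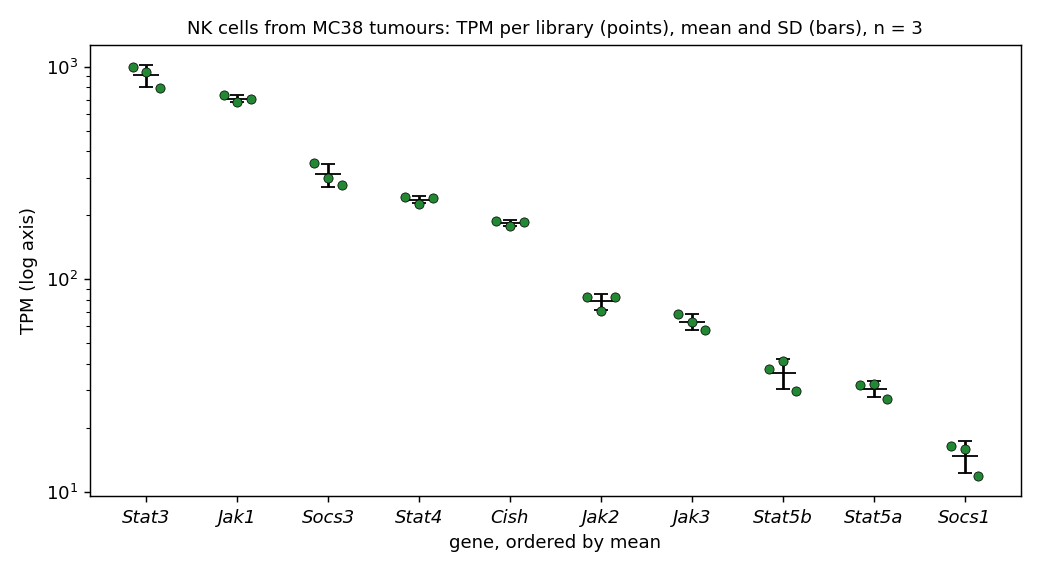
TPM (vertical axis, log scale) of the 10 genes (horizontal axis, ordered by mean) in NK cells from 3 MC38 tumour samples, with points for libraries and bars for mean and SD. Stat3, Jak1 and Socs3 lead at 910, 708 and 311 TPM, and Socs1 is last at 14.8 TPM.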

How the data were processed

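The authors deposited 4 tables of TPM, for sorted subsets, ionomycin, antibodies and tumours. The submitters' processing notes name STAR, RSEM and the build GRCm39, with no versions; strand handling and the treatment of shared reads are not given in the sources used here. Library totals were 934292 to 948786 TPM in the table of sorted cells and 1000000 in the other 3. Tested genes averaged 1 TPM or more over a table, as log2(TPM + 1), which understates changes of low genes. Limma 3.58.1 in R 4.3.3, with an intensity trend and 1 mean per group, was fitted over all groups of a table, two-sided, with Benjamini-Hochberg adjustment within each of 14 comparisons. The script was tested on simulated data. No block was used in the main fit of any table. Deviations from the group means had a mean correlation of 0.0104 between same-numbered sorted libraries and -0.00517 between other pairs. These values were 0.062 and -0.031 in the ionomycin experiment, and 0.0639 and -0.032 in the antibody experiment. The replicate number as a block was run as an alternative. Intervals are 95%.

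The 10 members, the gene lists and the cell markers were chosen with earlier results of these data known. All members are described. Change, SE and adjusted p are given for members that were called, or that did not overlap at an unadjusted p under 0.05; for other members they are given in part. A further gene list is not reported here. Of each other pathway list, up to 3 called genes with the largest change in each direction are named. Alternatives covered the pseudocount, the filter, rescaling, the groups in the fit, the variance trend, the replicate number as a block, the title groups of the antibody samples and each left-out library. Promoter windows are RefSeq, GRCm38.p6, used for sequence only.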

Additional observations from a re-analysis of the deposited data

How the results depend on the processing

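Over 15 counts of called members, 172 of 199 alternatives stayed within 1.5 times the count reported and 27 did not. Every count of 0 stayed at 0, so all 27 changes fell on the counts of 1. For B2m-/- against WT the count of 1 held in 4 of 13 alternatives in TP cells and 8 of 14 in TN cells. It held in 4 of 13 alternatives with ionomycin and in 3 of 6 averaged over the subsets of a mouse. In B2m-/- against WT TP cells the count of 1 became 0 with a pseudocount of 0.1, without the filter and with only the 2 groups in the fit, and leaving out single libraries gave 0 to 0. In TN cells the count of 1 became 0 without the filter, with only the 2 groups in the fit and with both TP groups out of it, and leaving out single libraries gave 0 to 1. With ionomycin the count of 1 became 2 (Stat3 and Stat5b) after median-of-ratios rescaling and quantile normalization, 0 without the variance trend and 0 without replicate 3 of both groups, and leaving out single libraries gave 0 to 2. Averaged over the subsets of a mouse it was 0 to 1 with single mice left out. Fits of fewer libraries have fewer degrees of freedom; for the other settings the cause was not tested. With only the groups compared, calls over all genes went from 191 to 43 in TP and from 86 to 12 in TN cells. Of 195 alternatives for 17 member changes, called or not, 165 kept their direction and side of the threshold. The called change of Socs1 stayed called in 4 of 13 alternatives in TP cells, 8 of 14 in TN cells and 3 of 6 over averaged mice. That of Stat3 with ionomycin stayed called in 7 of 13. Of the 195, 3 reversed, all under the title groups: Jak3 to -0.06 with NKG2D and to -0.10 with DNAM-1 antibodies, and Jak1 to 0.06 with DNAM-1 antibodies. Under these groups Jak2 with NKG2D antibodies went from -0.30 to -0.04, and calls over all genes from 59 to 0 and from 107 to 1. With the replicate number as a block no member call changed (Socs1 1.35 in TP and 1.61 in TN cells, Stat3 1.43), while calls over all genes went from 59 to 239 and from 107 to 528 for the antibody pairs. Same-numbered antibody libraries had a mean correlation of 0.0639, with 1 of 9 pairs over 0.1, against a mean of -0.032 for other pairs. TPM keep no depth, so the counting error of low genes such as Socs1 and Cish is unknown.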
